A study of Homo sapiens with 10 samples.

Results

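S100 proteins are small calcium-binding proteins, and their genes were followed here in spheroids of PC-3 cells exposed to topotecan. The 9 genes were S100A2, S100A4, S100A6, S100A10, S100A11, S100A13, S100A14, S100A16 and S100P, found by symbol among the 18144 genes of the deposited expression table. PC-3 is a prostate cancer cell line with low androgen receptor activity, grown here as three-dimensional spheroids. Topotecan is a topoisomerase I inhibitor. The 3 arms were untreated spheroids, conventional topotecan given as a single bolus (CONV-TOPO) and extended exposure to topotecan given in daily fractions (EE-TOPO). The spheroids, all of 1 cell line labelled wild type, differed, by their labels, in treatment and day. Libraries of untreated spheroids on days 0, 3 and 7 and of both regimens on days 3 and 7 were analysed, which makes 7 libraries with 1 library for each treatment and day. Day 1 was not analysed here. The study's methods describe an exposure of several weeks for its spheroids, whereas the labels give days, and a day here is that of the label.

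Most S100 proteins form dimers that expose a binding surface when calcium occupies their EF-hand motifs, a helix-loop-helix fold that holds calcium. Inside cells they bind annexins, myosin and other proteins at membranes and the cytoskeleton, and some are released and act through cell surface receptors. S100P and S100A4 are known in carcinomas for roles in motility and invasion. S100A2 is a gene of basal and squamous epithelium, and S100A10 with annexin A2 forms a surface complex that takes part in plasminogen activation.

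S100P lies on chromosome 4 at 6693878 to 6697171 on the plus strand (hg38, positions from the deposited table). The other 8 genes lie on the minus strand of chromosome 1, and 6 of them lie within 99.8 kb, from S100A6 at 153534599 to the end of S100A13 at 153634362. S100A10 (151982916 to 151993860) and S100A11 (152032506 to 152037005) lie outside that stretch. All 9 matched the RefSeq promoter table (GRCh38.p14), which gives 300 bases for a gene, 250 of them before the start. The promoters of S100P, with the largest rise, S100A4, the only other one of the 9 that holds TATAAA, and S100A6, the most abundant, are shown with motifs in capitals.
S100P, chr4:6693628-6693927, plus strand: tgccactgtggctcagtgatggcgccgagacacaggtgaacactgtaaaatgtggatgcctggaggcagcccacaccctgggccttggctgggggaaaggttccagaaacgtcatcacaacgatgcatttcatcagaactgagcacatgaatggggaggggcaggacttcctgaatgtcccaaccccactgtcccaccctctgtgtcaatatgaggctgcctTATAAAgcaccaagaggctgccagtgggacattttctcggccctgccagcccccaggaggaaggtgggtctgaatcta
S100A4, chr1:153545757-153546056, minus strand: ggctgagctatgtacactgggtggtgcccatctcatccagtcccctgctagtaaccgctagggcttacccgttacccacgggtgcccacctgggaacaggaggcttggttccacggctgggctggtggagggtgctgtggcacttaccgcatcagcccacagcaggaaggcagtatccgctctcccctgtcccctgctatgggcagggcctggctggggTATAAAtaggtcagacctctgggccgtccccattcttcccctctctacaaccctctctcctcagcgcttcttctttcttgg
S100A6, chr1:153535942-153536241, minus strand: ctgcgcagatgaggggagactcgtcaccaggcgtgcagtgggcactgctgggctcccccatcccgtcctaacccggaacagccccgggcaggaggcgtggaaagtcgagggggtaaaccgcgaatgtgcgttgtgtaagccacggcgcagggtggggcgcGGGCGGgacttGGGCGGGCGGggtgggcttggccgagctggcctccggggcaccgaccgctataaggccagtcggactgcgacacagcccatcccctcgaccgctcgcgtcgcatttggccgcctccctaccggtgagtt
In these sequences the capitals mark TATAAA in S100P and S100A4 and GGGCGG, the GC box, in S100A6, where 3 matches fall and the last 2 of them overlap. Motifs were searched on both strands. TATAAA was in 12% of 27305 promoters of the same length and in 2 of the 9, and GGGCGG was in 44.6% and in 4 of the 9 (S100A6, S100A10, S100A11 and S100A13). The AP-1 motif TGANTCA was in S100A2 alone of the 9, against 7.76% of all promoters. CATTCC, the TEAD motif, was in S100A16 alone, against 14%. TGACNNNGC, the core of the antioxidant response element, was in S100A13, S100A14 and S100A16, against 13.6%. A match describes the letters of the window and is not a measurement of binding.

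The depth estimated from the size of 1 read was 15.0 to 22.5 M reads (M, 1000000) per library. Intervals are 95% and cover counting error alone. Epithelial keratins and other markers of PC-3 were present, with KRT8 at 624 to 1169 counts per 1000000 reads (CPM), VIM at 731 to 1074 CPM and EPCAM at 149 to 195 CPM. TMPRSS2, an androgen receptor target, was at 71.4 to 149 CPM. In RNA from whole spheroids, fewer cells of a type and less RNA per cell cannot be told apart.

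S100A6, known as calcyclin, stood out by level. It was at 3518 CPM on day 0, 3074 on day 3 and 2252 on day 7 in untreated spheroids, at 3007 and 4378 CPM on days 3 and 7 of CONV-TOPO, and at 2265 and 4110 CPM on days 3 and 7 of EE-TOPO. It ranked 7th to 19th of the 18144 genes in the 7 libraries. The 9 genes together took 0.461% to 0.635% of all CPM in untreated spheroids, 0.578% (CONV-TOPO) and 0.451% (EE-TOPO) on day 3, and 0.878% and 0.839% on day 7. S100A6 made up 48.9% to 55.4% of that sum. Per kilobase of transcript, the mean untreated level was 6793 CPM for S100A6, 1037 for S100A16, 749 for S100A11, 621 for S100A10, 297 for S100A13, 262 for S100A2, 176 for S100A14, 67.1 for S100P and 52.8 for S100A4. Untreated ranges overlapped between the neighbours S100A11 and S100A10, S100A13 and S100A2, S100A2 and S100A14, and S100P and S100A4, so the order within those pairs is not settled by these libraries. On day 7 of topotecan S100P was at 306 CPM per kilobase in CONV-TOPO, below S100A14 (386) and S100A13 (365), and at 452 in EE-TOPO, above S100A14 (336) and S100A13 (300.2), so the ranges of these 3 genes overlapped.

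**Figure D1:**
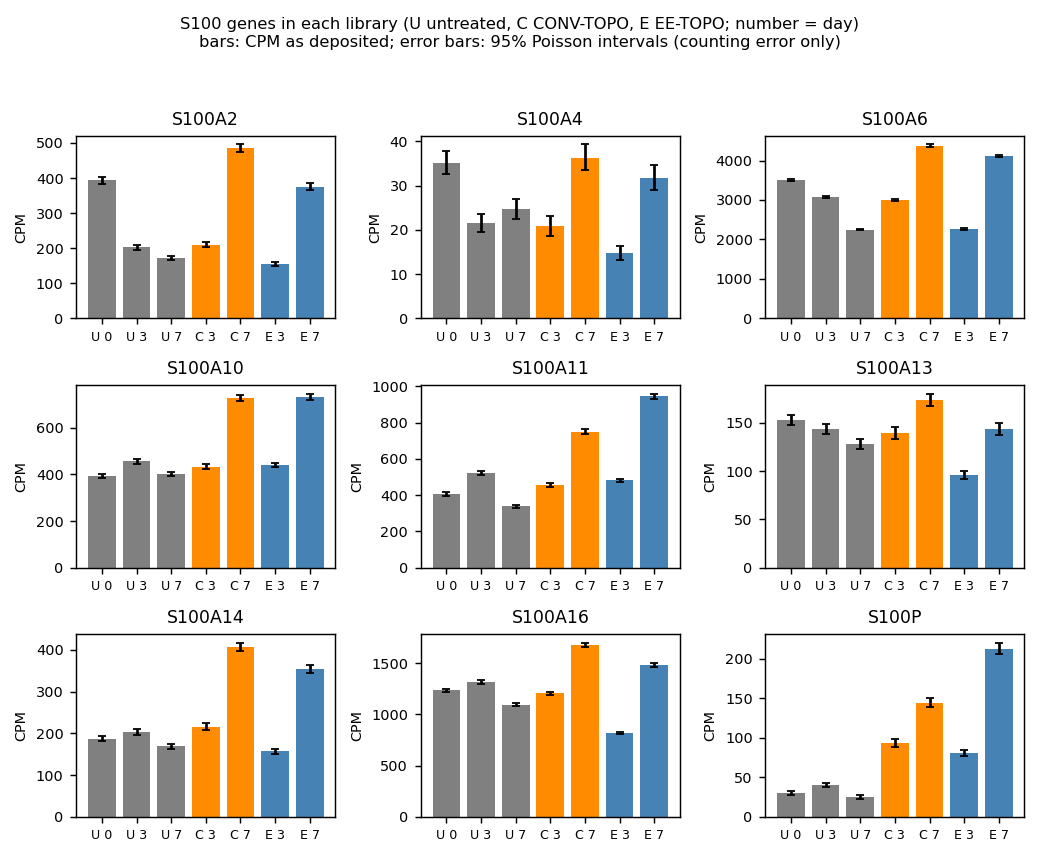
CPM (vertical axis from 0) of each S100 gene in the 7 libraries (U untreated, C CONV-TOPO, E EE-TOPO, with the day), 1 library per bar and 95% Poisson intervals as error bars. Every gene was higher on day 7 than on day 3 in both regimens, and S100P was above all untreated libraries on both days. Both day 3 treated libraries were above all untreated ones in 20.7% of all genes tested.

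Short transcripts, as a class, moved with day 7 of topotecan, and the 9 genes have short transcripts. The canonical transcripts were 434 to 1172 bases (median 563), against a median of 3209 over all genes, and 10.1% of tested genes were shorter than the longest of the 9. Over 11126 genes, none of which replicates another, transcript length and the log2 fold change had a rank correlation of -0.60 for day 7 of topotecan against untreated and 0.41 for day 3. On day 7, genes with transcripts of 500 to 1000 bases, 4 of the 9 among them, had a median log2 fold change of 0.48, and 47.8% were called higher. Genes under 500 bases, which include 3 of the 9, had a median of 0.23, with 30.8% called higher and 11.2% lower. Those of 1000 to 2000 bases, with 2 of the 9, had a median of 0.38 and 42.7% called higher. Genes of 4000 bases or more had a median of -0.38, and 4.80% were called higher. Each count of the S100 genes below stands beside this trend.

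On day 7 of topotecan, 7 of the 9 S100 genes rose against untreated spheroids, and none fell. The comparison set both regimens on day 7 (n = 2 libraries) against untreated days 0, 3 and 7 (n = 3), so its error is the spread between regimens and between untreated days. With limma, 20.4% of the 14857 genes tested were called higher at a Benjamini-Hochberg adjusted p under 0.05. The median log2 fold change was 1.02 over the 9 genes and -0.05 over all genes tested.

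S100P, a ligand of the receptor AGER and a binding partner of ezrin, rose most among the 9. It was at 29.8, 40.2 and 24.8 CPM in untreated spheroids on days 0, 3 and 7, at 92.8 and 144 CPM on days 3 and 7 of CONV-TOPO, and at 81.0 and 213 CPM on days 3 and 7 of EE-TOPO. All 4 treated libraries were above all 3 untreated ones. By CPM, both day 3 treated libraries were above all untreated ones in S100P alone of the 9. This holds for 20.7% of all genes tested, so 1 of 9 is no more than that share. The log2 fold change on day 7 was 2.66 (SE 0.21, limma, Benjamini-Hochberg adjusted p = 3.70e-05).

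S100A10, S100A11 and S100A6 are all known to bind annexins. S100A10, the light chain of the annexin A2 complex, which does not respond to calcium, was at 392, 456 and 403 CPM untreated, 434 and 729 CPM in CONV-TOPO and 441 and 734 CPM in EE-TOPO, in the same order of days. It rose by 1.02 (SE 0.12, limma, Benjamini-Hochberg adjusted p = 0.000168). S100A11, a partner of annexin A1, was at 406, 522 and 338 CPM untreated, 453 and 750 CPM in CONV-TOPO and 482 and 944 CPM in EE-TOPO. Its change was 1.22 (SE 0.18, limma, Benjamini-Hochberg adjusted p = 0.000545). In both genes the day 7 libraries were above every untreated and day 3 library. S100A11 has 8 processed pseudogenes in GENCODE 44, none of them listed in the table, and an antisense transcript spans the gene, so reads assigned to it are uncertain.

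S100A6, which binds ANXA11 among others, rose by 0.76 (SE 0.25, limma, Benjamini-Hochberg adjusted p = 0.0303), from the levels given above. Its day 7 treated libraries were above all untreated ones, the nearest being day 0. A long non-coding RNA gene on the opposite strand overlaps S100A6 by 531 bases.

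S100A14, S100A2 and S100A16 also rose. S100A14, found mainly in epithelia, was at 186, 203 and 169 CPM untreated, 216 and 407 CPM in CONV-TOPO and 156 and 354 CPM in EE-TOPO. The change of S100A14 was 1.24 (SE 0.16, limma, Benjamini-Hochberg adjusted p = 0.000247), with no overlap between the groups. S100A2 was at 393, 202 and 173 CPM untreated, 210 and 485 CPM in CONV-TOPO and 154 and 376 CPM in EE-TOPO. Its untreated day 0 library was above the EE-TOPO library of day 7, so the groups overlap in CPM, and the change was 1.04 (SE 0.31, limma, Benjamini-Hochberg adjusted p = 0.0197). S100A16, expressed in many tissues, was at 1237, 1316 and 1094 CPM untreated, 1206 and 1682 CPM in CONV-TOPO and 820 and 1482 CPM in EE-TOPO. S100A16 rose by 0.59 (SE 0.19, limma, Benjamini-Hochberg adjusted p = 0.0296).

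S100A4 and S100A13 did not pass the test. S100A4, a binding partner of non-muscle myosin, was at 35.1, 21.5 and 24.7 CPM untreated, 20.8 and 36.3 CPM in CONV-TOPO and 14.7 and 31.7 CPM in EE-TOPO. The high untreated value of day 0 lies between both day 7 values, and the change was 0.54 (SE 0.23, limma, Benjamini-Hochberg adjusted p = 0.0751). S100A13, which takes part in the release of FGF1, was at 153, 144 and 128 CPM untreated, 140 and 174 CPM in CONV-TOPO and 95.7 and 143 CPM in EE-TOPO. Its change was 0.36 (SE 0.17, limma, Benjamini-Hochberg adjusted p = 0.111). S100A13 overlaps S100A1 by 4114 bases and CHTOP by 381 bases on the opposite strand, and the counting is not stated to use strand. On its own strand S100A13 also overlaps long non-coding RNA genes, by 8009 and 2925 bases, so strand alone would not assign all reads.

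By CPM, 6 of the 9 had both day 7 treated libraries above all untreated ones, against 21.1% of all genes tested, and after TMM scaling 8 of the 9, against 29.5%. The calls on S100A2, S100A6 and S100A16 were lost when the CONV-TOPO library of day 7 or the untreated library of day 7 was left out, which left 4 called. Without the EE-TOPO library of day 7 the calls on S100A6 and S100A16 were lost, which left 5, and without untreated day 0 S100A4 was also called, at 0.77. KRT8 (0.92), KRT18 (0.72) and VIM (0.62) were called higher in the same comparison and CD44 and EPCAM were not, and their part in the S100 result was not tested.

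**Figure D2:**
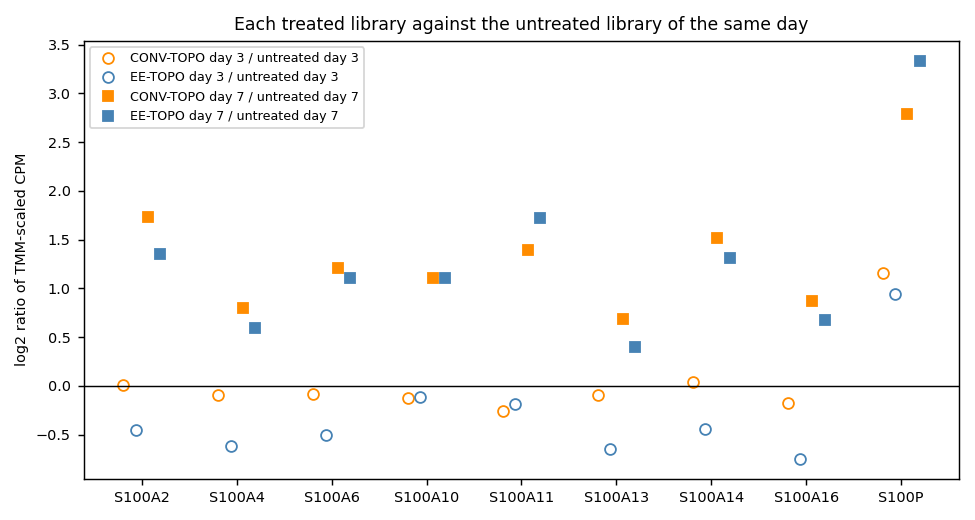
Log2 ratio of TMM-scaled CPM (vertical axis) of each S100 gene in 4 treated libraries, each set against untreated spheroids of that day, with circles for day 3 and squares for day 7. On day 7 all squares lie above 0, and on day 3 S100P was the only gene above 0 in both regimens.

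Single libraries were also compared within a day, with counting error alone behind each value. On day 7, CONV-TOPO was above untreated for 9 of the 9 genes, with a median log2 ratio of 1.21 after TMM scaling. EE-TOPO was above for 9 of the 9, with a median of 1.10. Of all genes tested, 46.9% (CONV-TOPO) and 48.2% (EE-TOPO) were above untreated after TMM scaling. At least a 2-fold rise was seen for 6 of the 9 in each regimen, against 6.80% (CONV-TOPO) and 8.35% (EE-TOPO) of all genes tested. The largest fold in CPM was that of S100P, 5.80 (interval 5.25 to 6.42) in CONV-TOPO and 8.56 (7.77 to 9.45) in EE-TOPO. The untreated baseline also moved. In untreated spheroids all 9 genes were lower on day 7 than on day 0 after TMM scaling, with a median log2 ratio of -0.35. Of all genes tested, 50.4% were higher there. Against untreated day 0, CONV-TOPO of day 7 was still above for 9 of the 9 in CPM, and EE-TOPO for 6 of the 9. After TMM scaling these counts were 9 and 8, against 47.6% and 49.0% of all genes tested.

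On day 3 the pattern was different. Of the 9 genes 0 passed the test against untreated spheroids, and the percentage of all 14857 genes called by limma was 0. At an unadjusted p under 0.05 there were 2279 genes, 2 of them S100 genes. The 9 genes had a median log2 fold change of -0.23, and 7 of the 9 were negative, while 7343 of all 14857 genes were positive. S100P had a log2 fold change of 1.38 (SE 0.21, limma, Benjamini-Hochberg adjusted p = 0.0743), with a fold in CPM against untreated day 3 of 2.31 (interval 2.11 to 2.53) in CONV-TOPO and 2.01 (1.85 to 2.19) in EE-TOPO. Without the untreated library of day 3 S100P was called, at 1.55. S100A4 was the only one of the 9 with both day 3 treated libraries below all untreated ones in CPM, which holds for 13.2% of all genes tested, so 1 of 9 is no more than that share. S100A4 had a log2 fold change of -0.64 (SE 0.23, limma, Benjamini-Hochberg adjusted p = 0.238).

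Between day 3 and day 7 of topotecan, 9 of the 9 genes rose, against 21.8% of all genes called higher by limma. The log2 fold changes ran from 0.73 (SE 0.19) for S100A13 to 1.52 (SE 0.34) for S100A2, with S100A14 at 1.32, S100P at 1.29, S100A4 at 1.19 and S100A6 at 0.98. In CPM the day 7 values of all 9 were above both day 3 values, which holds for 24.1% of all genes tested. Leaving out the EE-TOPO library of day 3 left 6 called, without S100A6, S100A13 and S100A16.

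Whether the topotecan effect itself differed between the days was tested with a contrast chosen after the levels were seen. That contrast sets both regimens of a day (n = 2 libraries) against the untreated library of that day (n = 1). Its error is the spread between regimens within a day and holds no spread between untreated libraries. The topotecan effect of each day thus rests on 1 untreated library. It was called higher on day 7 for 7 of the 9, against 14.8% of all genes. S100P changed by 1.97 (SE 0.31), S100A11 by 1.77 (SE 0.24), S100A2 by 1.76 (SE 0.30) and S100A14 by 1.60 (SE 0.28). S100A4 had 1.01 (SE 0.34, limma, Benjamini-Hochberg adjusted p = 0.0521) and S100A13 had 0.91 (SE 0.31, limma, Benjamini-Hochberg adjusted p = 0.0587). Without the EE-TOPO library of day 3 the count was 3. A fall of the untreated level from day 3 to day 7 adds to this difference. Between those untreated libraries 8 of the 9 were lower on day 7 after TMM scaling, with a median log2 ratio of -0.28. Of all genes tested, 48.7% were higher. The log2 ratio was -0.71 for S100P, -0.64 for S100A11 and -0.47 for S100A6, and 0.19 for S100A4. These comparisons share libraries, and a rise in one is not independent of a rise in another.

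The regimens were compared over days 3 and 7 with day as a term, in a fit that also held the untreated libraries of those days. The day term was shared by all arms, so a topotecan effect that differed between days went into the error. Of the 9 genes 0 were called, and the percentage of all genes called by limma was 0, with 136 genes at an unadjusted p under 0.05. The 9 log2 fold changes of EE-TOPO against CONV-TOPO had a median of -0.34, with S100A13 at -0.42 (SE 0.31) and S100A11 at 0.20 (SE 0.48). The SE of the 9 ran from 0.31 to 0.53, and a p that misses the threshold does not show that the regimens acted alike. With treated libraries alone, 5 of the 9 had an unadjusted limma p under 0.05, as did 1472 of the 14857 genes tested. Of the 9, 0 were called there. In single libraries, EE-TOPO was above CONV-TOPO on day 3 for 2 of the 9 genes, and on day 7 for 3 of the 9 in CPM and 2 after TMM scaling. Of all genes tested, 50.7% (day 3) and 51.2% (day 7) were above after TMM scaling. S100P was lower in EE-TOPO on day 3, at a fold of 0.872 (interval 0.813 to 0.936), and higher on day 7, at 1.48 (1.40 to 1.56). S100A11 on day 7 had 1.26 (1.23 to 1.29). S100A16 was lower in EE-TOPO on both days, at 0.680 (0.666 to 0.694) and 0.881 (0.866 to 0.897).

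**Figure D3:**
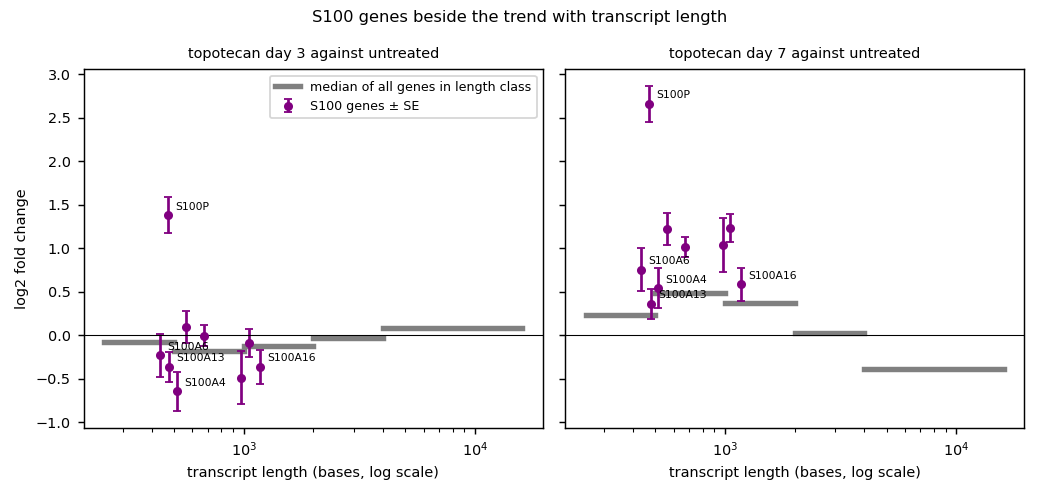
Log2 fold change (vertical axis) of the S100 genes, with SE, against transcript length in bases (log scale), on day 3 and day 7 of topotecan against untreated, and the median of all genes in 5 length classes as grey lines. On day 7 S100P lies far above the median of its length class, at 2.66 against 0.23, while S100A4 lies near its own, at 0.54 against 0.48.

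With the trend of log2 values with gene span, transcript length and GC content removed in each library, 4 of the 9 remained called higher on day 7 against untreated, against 10.3% of all genes. They were S100P at 2.32 (SE 0.20), S100A11 at 0.80 (SE 0.17), S100A14 at 0.76 (SE 0.13) and S100A10 at 0.70 (SE 0.11). S100A2 had 0.52 (SE 0.28) and S100A6 had 0.41 (SE 0.20). S100A13 had -0.01 (SE 0.14) and S100A16 had -0.05 (SE 0.16), so their direction turned. From day 3 to day 7 of topotecan 4 of the 9 remained called with the trend removed, against 9.57%, namely S100P (0.83), S100A4 (0.75), S100A14 (0.75) and S100A10 (0.56). On day 3 S100P was the only one of the 9 called, at 1.49 (SE 0.20, limma, Benjamini-Hochberg adjusted p = 0.0475). Of all 14279 genes tested with the trend removed, 7 were called on day 3. That p lies close to the threshold, and S100P was called on day 3 in 2 of 16 alternative settings.

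**Figure D4:**
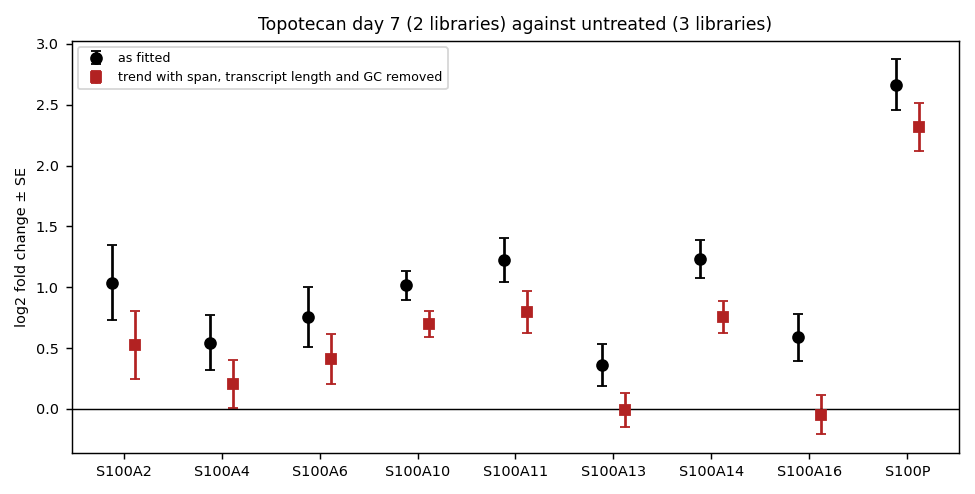
Log2 fold change with SE (vertical axis) of each S100 gene for topotecan on day 7 (n = 2 libraries) against untreated (n = 3 libraries), as fitted (circles) and after removal of the trend (squares). S100P stays highest of the 9, and S100A13 and S100A16 fall to about 0.

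Of the other S100 genes, S100A1, S100A3, S100A5, S100A8 and S100A9 were in the table and 4 were tested, since S100A8 did not pass the filter, at 0 to 0.20 CPM. On day 7, 3 of the 4 rose against untreated spheroids, namely S100A5 (1.47, SE 0.20), S100A9 (1.08, SE 0.25) and S100A3 (0.99, SE 0.18). S100A9, an inflammatory partner of S100A8, was at 86.9, 58.4 and 69.9 CPM untreated, 118 and 145 CPM in CONV-TOPO and 61.3 and 118 CPM in EE-TOPO. S100A5 was at 0.601 to 0.893 CPM untreated and at 3.10 and 3.53 CPM on day 7 of topotecan.

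Over all genes tested on day 7, 20.4% were called higher and 22.9% lower. Of 12 partners tested on day 7, 2 rose, ANXA2 (0.85, SE 0.14) and ANXA11 (0.48, SE 0.13), and 2 fell, the scaffold proteins AHNAK (-0.96, SE 0.22) and IQGAP1 (-0.93, SE 0.13), with a median of 0.00 and a median transcript of 3984 bases. ANXA2, the partner of S100A10, was at 670, 676 and 622 CPM untreated, 592 and 944 CPM in CONV-TOPO and 689 and 1111 CPM in EE-TOPO. Of 2 receptors tested, BSG, a receptor for S100A9, rose by 1.23 (SE 0.13), and AGER had -0.33 (SE 0.29). In plasminogen activation 2 of 6 genes rose, the urokinase receptor PLAUR (0.72, SE 0.12) and the activator PLAT (0.50, SE 0.17). Among 24 other EF-hand genes 11 rose and 5 fell, with a median of 0.31. Of the 24 tested genes that start within 250 kb of one of the 9, 5 rose and 4 fell, close to the shares over all genes, with a median of 0.19.

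The profiles of the 9 over the 7 libraries were compared in pairs. Pearson's r between pairs of the 9 ran from 0.31 to 0.97, with a median of 0.85 over 36 pairs, and with the trend removed from -0.23 to 0.98, with a median of 0.61 and 30 of the 36 pairs positive. S100A6 lay closest to the median profile of the 9 (r = 0.98) and S100P farthest (r = 0.72), with each gene itself part of that profile. Of 4584 other genes with a mean of at least 50 CPM, those most like that profile were SCAND1, MRPL14, NDUFB11, ANXA11 and VAT1, with r from 0.990 to 0.995. All these values are descriptions over 7 libraries that share treatments, days and the trend with length.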

How the data were processed

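RNA of PC-3 spheroids was sequenced by the authors with a TruSeq RNA kit (version 2 of the kit, per the labels). Per the paper's methods, reads were mapped to hg38 with STAR, and DESeq2, edgeR and Partek Flow were used. The deposited table holds CPM for 18144 genes, scaled by the authors to 1000000 per library, with an offset of 0.0001 CPM that was subtracted here. Of low values, 90.6% to 92.3% per library were whole reads, within 0.02 of a step, so no count test was run. Libraries of 7 of 10 samples were in the table. A gene listed at 0 allows up to 3 reads, 0.133 to 0.200 CPM. Genes with at least 0.528 CPM (10 reads at median depth) in 2 or more libraries were kept. CPM were scaled by TMM factors (0.886 to 1.09), and log2(CPM + 1) was fitted with limma 3.58.1 (R 4.3.3, empirical Bayes with a mean-variance trend, two-sided, Benjamini-Hochberg over all 14857 genes). A fold change on this scale understates that of low genes. Transcript lengths came from GENCODE 44. No library has a replicate, so p-values measure the spread between days and regimens. In the contrast between days they measure the spread between regimens within a day alone. Data were simulated with 200 genes changed 4-fold among 14857 genes. At a noise SD of 0.4 (log2), the comparison of topotecan on day 7 with untreated recovered 98.5%, and that of EE-TOPO with CONV-TOPO 86.5%. The simulated noise was independent between libraries, and no simulated regimen effect differed between days. Smaller changes were not simulated, so these percentages are not the power of the tests on the S100 genes. The 9 genes, their lists and the tests were chosen with earlier results of these data known. Named list genes were, at most 4 a list, those called by a test, and otherwise those with the highest mean CPM.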

Additional observations from a re-analysis of the deposited data

Results flagged for a closer look

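For 7 of the 9 S100 genes the topotecan effect on day 7 differed from that on day 3, in a limma contrast that takes the untreated library of the same day as its baseline (adjusted p under 0.05, chosen after the levels were seen). The difference in log2 effect was 1.97 for S100P, 1.77 for S100A11, 1.76 for S100A2, 1.60 for S100A14, 1.45 for S100A6, 1.23 for S100A16 and 1.22 for S100A10. For S100P the effect was positive on both days. Against all untreated libraries, which is not the baseline of the contrast, the fitted day 3 effects were -0.48 for S100A2, -0.36 for S100A16, -0.23 for S100A6, -0.09 for S100A14, -0.0029 for S100A10 and 0.10 for S100A11. None of them was called. Against untreated day 3, the log2 ratio after TMM scaling was -0.25 (CONV-TOPO) and -0.18 (EE-TOPO) for S100A11. For S100A2 it was 0.01 and -0.45. Each difference also holds the change between the untreated libraries of days 3 and 7, with 1 library for each day. Of the 9, 8 were lower in untreated spheroids on day 7 than on day 3 after TMM scaling, and 48.7% of all genes tested were higher. The median difference over all genes tested was -0.03. With the trend with span, length and GC content removed, that median was 0.01. The difference was then 1.43 for S100P and 1.13 for S100A11, and it ran from 0.34 (S100A13) to 1.01 (S100A2) for the others of the 9.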

How the results depend on the processing

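The direction of the day 7 change against untreated held for 7 of the 9 genes under every alternative run, and S100A13 (-0.0088) and S100A16 (-0.046) turned when the trend with span, length and GC content was removed. That setting left 4 of the 9 called on day 7 against untreated (3146 of all genes), 4 on day 7 against day 3 (2629), 1 on day 3 (7) and 2 for the difference between days (1113). Without a filter 5 of the 9 were called on day 7 against untreated (6164 of 18100 genes), S100A6 and S100A16 being lost. For the difference between days no filter gave 3 of the 9 and 1950 of all genes, and no mean-variance trend gave 2746 of all genes. With the same-day untreated library as baseline 2 genes were called on day 3, and with treated libraries alone 81 genes were called between regimens, none of them among the 9. The fit on treated libraries alone holds no untreated arm, so its error holds no change between days that both regimens share. How far this accounts for the 81 genes was not tested, nor was the cause of the other changes.

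Library totals in place of TMM shifted the median of all genes on day 7 to -0.22. They left 5 of the 9 called (6772 of all genes). Taking untreated day 0 as baseline, 3 of the 9 were higher in EE-TOPO on day 3, against 51.0% of all genes tested after TMM scaling. With median-of-ratios factors 1 of the 9 was higher in EE-TOPO than in CONV-TOPO on day 3. Leaving out 1 library gave 4 to 8 of the 9 (4065 to 6258 of all genes) on day 7 against untreated, 0 to 1 (0 to 213) on day 3, 6 to 9 (3868 to 6921) on day 7 against day 3, 0 (0 to 83) between regimens, and 3 to 9 (1008 to 4225) for the difference between days. The regimen difference of S100A2 ran from -0.89 without the EE-TOPO library of day 7 to 0.051 without that of day 3. With the untreated library of day 7 alone as baseline, the median log2 fold change on day 7 was 1.16 over the 9 and -0.04 over all genes tested. With 1 library for each, the treatment and the library cannot be told apart; at 15.0 to 22.5 M reads (M, 1000000) a gene listed at 0 allows up to 0.20 CPM. The contrast between days could not be fitted without the untreated libraries of days 3 or 7.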
